A study of Mus musculus with 10 samples.

Results

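The 10 genes described here are Fos, Fosb, Jun, Junb, Egr1, Egr2, Egr3, Nr4a1, Atf3 and Ier3, immediate early genes chosen by symbol. They were chosen with earlier results of these data known. All 10 were found among the 24306 genes of the deposited count table. Of these, 9 encode transcription factors, whereas Ier3 encodes a stress-inducible regulator of cell survival. RNA was measured by polyA RNA sequencing of whole mouse ovaries at 6 weeks of age on a mixed C57BL/6 and 129 background. Rar mutants (n = 3) were Rara f/f together with Rarb f/f and Rarg f/f, which encode retinoic acid receptors. They also carried Sf1-Cre, in which regulatory sequence of Nr5a1 drives the recombinase in the gonad's somatic lineages. The Dmrt1 het Rar mutants (n = 2) had those alleles and the Cre, and in addition 1 floxed allele of Dmrt1 (Dmrt1 fl/+), a regulator of gonadal sex. Controls (n = 5) had the same floxed receptor alleles without the Cre. In a whole ovary, cells without Cre activity are measured along with the recombined ones.

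Immediate early genes are transcribed within minutes of a stimulus, without the need for new protein synthesis. Growth factors act on them through the ERK kinases and the serum response factor, which binds CArG boxes, and hormones that raise cAMP act through CREB, which binds cAMP response elements. Fos and Jun proteins pair through leucine zippers to form AP-1, Egr proteins bind GC-rich DNA through zinc fingers, and Nr4a1 is an orphan nuclear receptor. In the ovary, luteinising hormone is known to induce several of them in granulosa cells of preovulatory follicles.

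Because the 10 genes are read out together below, the promoters of 4 of them from different families are shown first: Fos, Egr2, Nr4a1 and Jun. They were picked by hand among windows that end just before a transcript start in both RefSeq and GENCODE. Each is the 250 bases before the transcription start from RefSeq on GRCm38.p6, 5′ to 3′ on the gene's strand. They lie at chr12:85473640-85473889 (plus strand) for Fos, chr10:67537619-67537868 (plus) for Egr2, chr15:101266596-101266845 (plus) for Nr4a1 and chr4:95052223-95052472 (minus) for Jun. Capitals mark TGACG, the core of the cAMP response element, on either strand, the CArG box, and the EGR site GCGNGGGCG.
Fos: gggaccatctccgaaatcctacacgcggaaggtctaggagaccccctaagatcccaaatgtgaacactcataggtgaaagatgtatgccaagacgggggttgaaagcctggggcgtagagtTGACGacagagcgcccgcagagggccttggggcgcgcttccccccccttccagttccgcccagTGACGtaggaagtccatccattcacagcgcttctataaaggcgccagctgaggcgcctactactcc
Egr2: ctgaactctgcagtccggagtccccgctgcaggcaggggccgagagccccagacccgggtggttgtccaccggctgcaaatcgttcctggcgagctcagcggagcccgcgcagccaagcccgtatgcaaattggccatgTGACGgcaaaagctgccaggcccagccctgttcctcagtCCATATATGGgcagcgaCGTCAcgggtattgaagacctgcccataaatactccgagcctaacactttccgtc
Nr4a1: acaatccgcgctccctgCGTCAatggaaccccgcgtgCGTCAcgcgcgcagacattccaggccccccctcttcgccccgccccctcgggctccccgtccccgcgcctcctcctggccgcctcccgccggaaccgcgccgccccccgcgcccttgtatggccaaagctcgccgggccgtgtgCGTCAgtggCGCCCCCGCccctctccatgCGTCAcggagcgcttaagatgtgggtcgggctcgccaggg
Jun: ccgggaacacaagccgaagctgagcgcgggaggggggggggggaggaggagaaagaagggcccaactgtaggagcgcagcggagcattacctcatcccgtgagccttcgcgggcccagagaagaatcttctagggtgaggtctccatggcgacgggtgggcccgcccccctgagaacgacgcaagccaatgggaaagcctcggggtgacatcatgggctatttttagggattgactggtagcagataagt

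Windows of 8 of the 10 genes were searched. Windows on chromosome 18, where Egr1 lies, were left out for the 10 genes but kept in the share over all windows. No window was matched for Egr3. TGACG stood in the 250-base window of 6 of the 8, with 4 matches in Nr4a1, 2 each in Fos and Egr2, and 1 each in Fosb, Junb and Atf3. It was found in 17.7% of all 32817 windows. Of the 5 windows of Egr2, the third, which ends just before a GENCODE transcript start, is shown and counted. The CArG box was found in Egr2 alone among the 8 and in 1.47% of all windows, and the EGR site in Fosb and Nr4a1 and in 4.7% of all windows. The whole element TGACGTCA (1.55% of windows), which contains TGACG, and the AP-1 site TGANTCA (6.75%) were in 0 of the 8 windows. Both strands were searched. Ier3, which spanned 30.8-fold over the 10 libraries, and Jun, which spanned 3.40-fold, both had no match to TGACG, the CArG box or the EGR site. A match describes the letters only, and a missing match says nothing about sites elsewhere.

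Libraries held 21064856 to 25920131 counts. Among the targeted genes, Rarg had 14.9 to 19.3 CPM in Rar mutants, 20.4 and 21.97 CPM in Dmrt1 het Rar mutants and 24.3 to 32.7 CPM in controls. Both mutant groups thus lay below every control for Rarg. Rara had 20.4 to 30.8 CPM in Rar mutants and 20.1 to 37.1 CPM in controls, and both mutant groups lay within the control range. Rarb had 2.404 to 2.906 CPM in Rar mutants, 2.103 and 2.632 CPM in Dmrt1 het Rar mutants and 2.416 to 4.58 CPM in controls, with overlap. Dmrt1 was at 0 CPM in every library except Dmrt1 het Rar mutant 2, at 0.219 CPM. The levels of Rara and Rarb thus do not show their loss. A count over a whole gene includes its unfloxed exons. CPM here means counts scaled to a common library size with TMM factors. Markers of granulosa, theca, luteal and germ cells were present in every library. The sample titles carry numbers, and 4 libraries (Rar mutant 1, both Dmrt1 het Rar mutants and control 1) have numbers under 7800. These 4 stood apart from the other 6 along the first principal component, so results are also given within each set. Nothing in the labels says that libraries came from separate animals, so p-values measure the spread between these libraries.

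In control ovaries Nr4a1 had the highest level per transcript length of the 10 genes, at 19.4 ± 9.81 FPKM (SD, n = 5). Egr1 (14.1 ± 7.88 FPKM), Jun (11.4 ± 1.62 FPKM), Junb (10.2 ± 3.96 FPKM), Ier3 (7.06 ± 1.79 FPKM) and Fos (4.95 ± 1.21 FPKM) followed, and each neighbouring pair in that order overlapped in its control values. Atf3 at 1.26 ± 0.364 FPKM lay below Fos in every control, its highest value being 1.73 FPKM against a lowest of 3.94 FPKM for Fos. Egr2 (0.781 ± 0.474 FPKM), Egr3 (0.521 ± 0.392 FPKM) and Fosb (0.275 ± 0.265 FPKM) were the least abundant, again with overlapping neighbours. In Rar mutant 3, Nr4a1 was at 157 FPKM, Ier3 at 129 FPKM, Egr1 at 105 FPKM and Junb at 100.3 FPKM, and Fosb was again lowest at 1.06 FPKM.

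**Figure D1:**
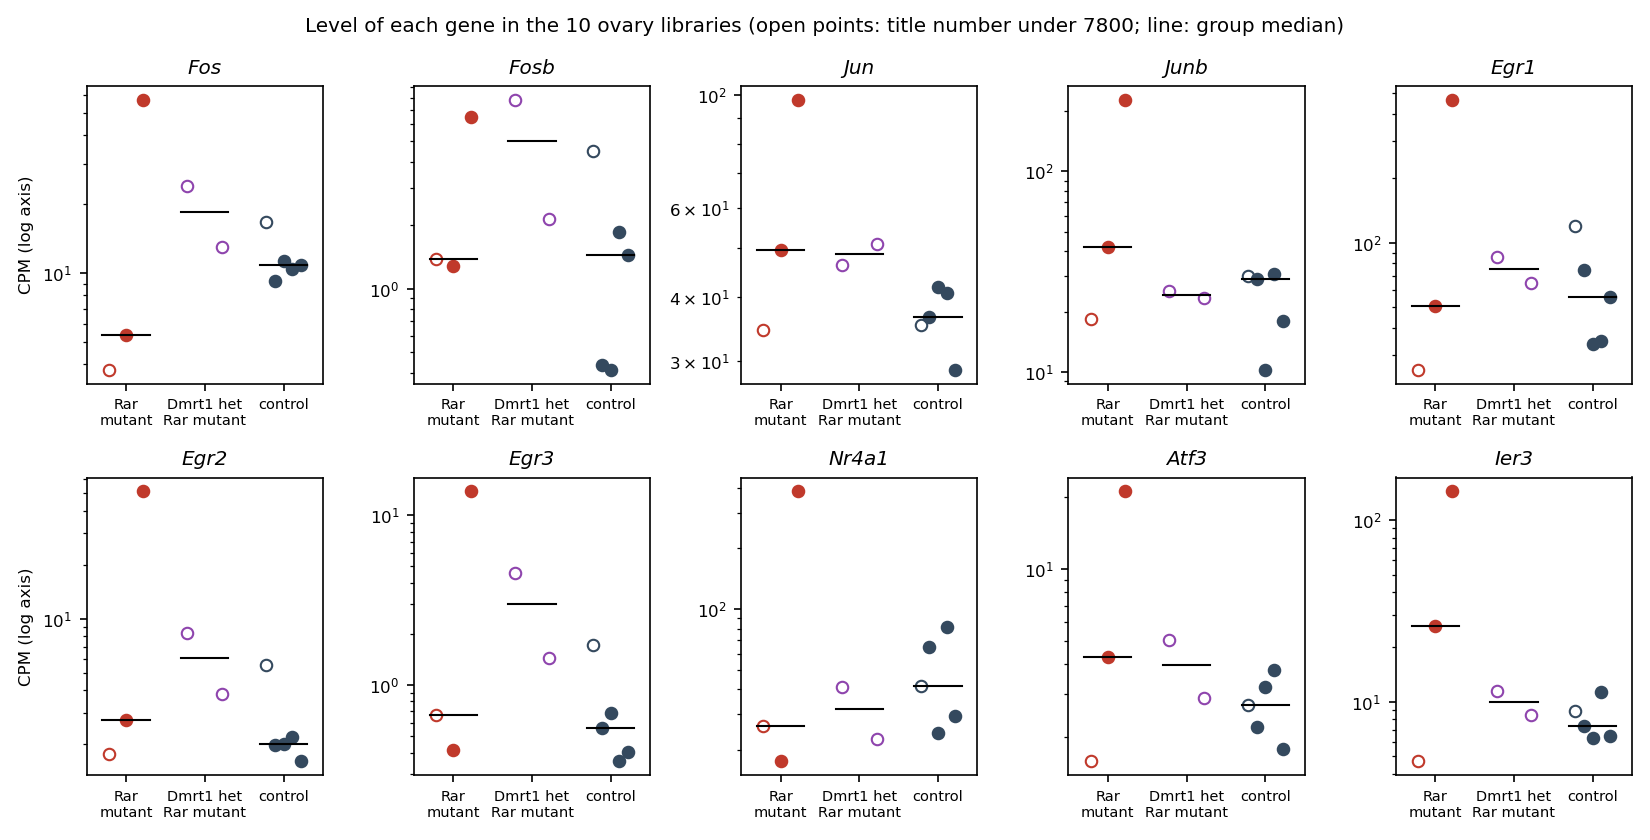
CPM (log axis) of each gene in every library by group, with open points for title numbers under 7800 and a line at the group median. Rar mutant 3 is the highest library for 9 of the 10 genes, and Fosb is highest in Dmrt1 het Rar mutant 1.

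Of the AP-1 genes, Fos (ENSMUSG00000021250, GRCm38 chromosome 12, 85473890 to 85477273) had 3.78, 5.36 and 57.4 CPM in Rar mutants 1, 2 and 3. It had 24.01 and 13.1 CPM in the Dmrt1 het Rar mutants and 16.7, 9.26, 11.4, 10.4 and 10.9 CPM in the 5 controls. Rar mutants 1 and 2 thus lay below every control for Fos and Rar mutant 3 above every one. Fosb, a close relative of Fos, had 1.38, 1.29 and 6.53 CPM in Rar mutants, 7.86 and 2.15 CPM in Dmrt1 het Rar mutants, and 4.504, 0.437, 0.412, 1.85 and 1.45 CPM in controls. These rest on 31 to 152 counts in Rar mutants, 49 and 187 counts in Dmrt1 het Rar mutants and 9 to 110 counts in controls. Its highest value was in Dmrt1 het Rar mutant 1, and the values of both mutant groups overlapped those of controls.

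Jun (ENSMUSG00000052684, chromosome 4, 95049034 to 95052222) had 34.4, 49.6 and 97.8 CPM in Rar mutants, 46.3 and 50.8 CPM in Dmrt1 het Rar mutants, and 35.3, 36.6, 42.0, 40.8 and 28.8 CPM in controls. It spanned 3.40-fold over the 10 libraries, the narrowest range of the 10 genes, and both Dmrt1 het Rar mutants lay above every control. Junb (ENSMUSG00000052837, chromosome 8, 84974484 to 84978718) had 18.3, 42.0 and 228 CPM in Rar mutants, 25.2 and 23.4 CPM in Dmrt1 het Rar mutants, and 30.01, 29.2, 10.2, 30.9 and 17.9 CPM in controls. Rar mutants 2 and 3 lay above every control for Junb and Rar mutant 1 among them. The annotation overlaps Junb with Prdx2 on the opposite strand, and the use of strand in counting is not given in the sources used here. Prdx2 had 551 CPM in Rar mutant 3 and 244 to 616 CPM over the 10 libraries.

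Among the zinc finger genes, Egr1 had 25.4, 50.7 and 467 CPM in Rar mutants, 85.7 and 64.8 CPM in Dmrt1 het Rar mutants, and 119.8, 74.9, 33.7, 34.7 and 55.5 CPM in controls. Egr2 (ENSMUSG00000037868, chromosome 10, 67535475 to 67542188) had 1.77, 2.74 and 51.5 CPM in Rar mutants, 8.33 and 3.82 CPM in Dmrt1 het Rar mutants, and 5.57, 1.99, 2.02, 2.20 and 1.61 CPM in controls. Egr3 had 0.669, 0.415 and 13.9 CPM in Rar mutants, 4.58 and 1.45 CPM in Dmrt1 het Rar mutants, and 1.72, 0.557, 0.687, 0.354 and 0.402 CPM in controls. For all 3 genes Rar mutant 3 was highest, Rar mutants 1 and 2 lay among or below the controls, and control 1 was the highest control. Egr3 rests on few counts, 10 to 324 in Rar mutants, 33 and 109 in Dmrt1 het Rar mutants and 9 to 42 in controls. The range over the 10 libraries was 39.3-fold for Egr3 and 32.0-fold for Egr2, the widest of the 10 genes.

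Nr4a1 (ENSMUSG00000023034, chromosome 15, 101254269 to 101274795) had 26.4, 17.5 and 386 CPM in Rar mutants, 41.0 and 22.6 CPM in Dmrt1 het Rar mutants, and 41.6, 65.1, 24.1, 81.9 and 29.4 CPM in controls. Rar mutant 2 and Dmrt1 het Rar mutant 2 lay below every control for it. Atf3, a stress-responsive member of the ATF/CREB family, had 1.57, 4.28 and 21.1 CPM in Rar mutants, 5.05 and 2.89 CPM in Dmrt1 het Rar mutants, and 2.703, 2.19, 3.21, 3.78 and 1.77 CPM in controls. Ier3 (ENSMUSG00000003541, chromosome 17, 35821684 to 35822923) had 4.68, 25.9 and 144 CPM in Rar mutants, 11.4 and 8.47 CPM in Dmrt1 het Rar mutants, and 8.93, 7.31, 6.27, 11.3 and 6.47 CPM in controls. For Atf3 and Ier3, Rar mutants 2 and 3 exceeded every control and Rar mutant 1 lay below every control.

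The feature shared by the set was thus a single library. Rar mutant 3 was the highest of the 10 libraries for 9 of 10 genes, as it was for 15.1% of the 20570 tested genes, and it exceeded every control for 10 of 10 (20.8% of tested genes) and lay below every control for 0 of 10 (24.8%). It was over 4 times the next library for 5 of 10, namely Egr2, Ier3, Junb, Nr4a1 and Atf3, against 0.369% of tested genes. Since the genes were chosen with earlier results known, these shares describe the set and are no test of it. The ratio of Rar mutant 3 to the next library had a median of 4.04 over the 10 genes and 0.669 over all tested genes. It ran from 0.830 for Fosb to 6.19 for Egr2. Relative to the control mean, CPM in Rar mutant 3 was 19.2-fold for Egr2, 18.7-fold for Egr3, 17.9-fold for Ier3, 9.66-fold for Junb and 2.67-fold for Jun.

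**Figure D2:**
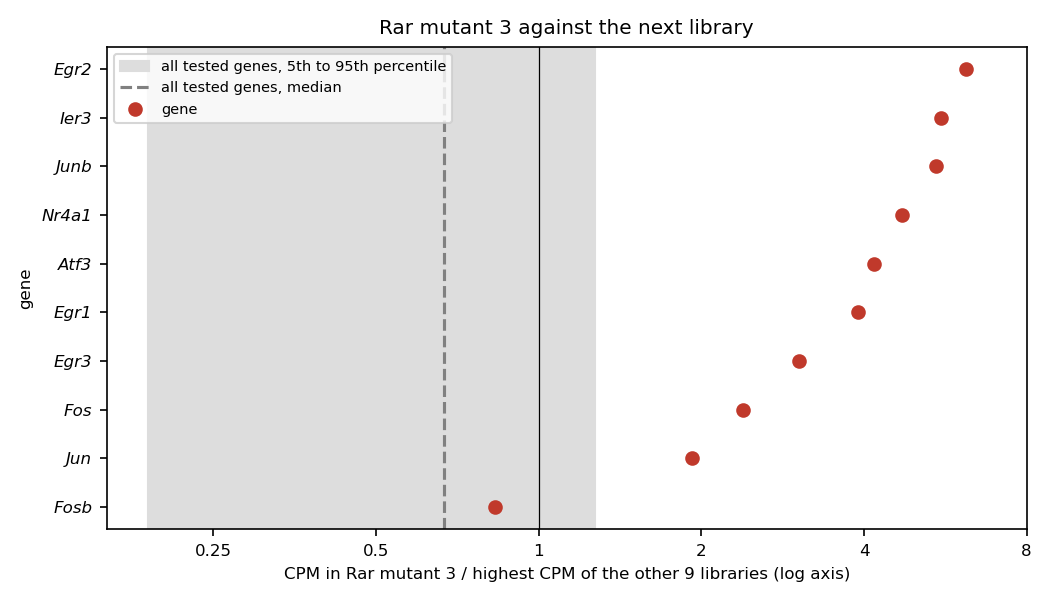
CPM in Rar mutant 3 divided by the highest CPM of the other 9 libraries (log axis), for each gene as a point. The shaded band is the range from the 5th to the 95th percentile over all tested genes, and the dashed line is their median of 0.669. Points of 9 genes lie to the right of the band, and Fosb at 0.830 lies within it.

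The other libraries differed in which genes lay outside the control range. Rar mutant 2 lay above every control for Jun, Junb, Atf3 and Ier3 (4 of 10, against 18% of tested genes) and below every control for Fos and Nr4a1 (2 of 10, against 16.6%). Ier3 in Rar mutant 2 was 3.22 times the control mean, whereas Nr4a1 was 0.362 times and Fos 0.457 times the control mean. Rar mutant 1 was above every control for 0 of 10 (17.8% of tested genes) and below every control for Fos, Egr1, Atf3 and Ier3 (4 of 10, against 20.2%). Dmrt1 het Rar mutant 1 was above every control for Fos, Fosb, Jun, Egr2, Egr3, Atf3 and Ier3 (7 of 10, against 23.1%). In Dmrt1 het Rar mutant 2 this held for Jun alone (1 of 10, against 20.4%). Below every control were 0 of 10 in Dmrt1 het Rar mutant 1 (22.5% of tested genes). In Dmrt1 het Rar mutant 2 it was Nr4a1 alone (1 of 10, against 21.8%). Dmrt1 het Rar mutant 1 exceeded Dmrt1 het Rar mutant 2 for 9 of 10 genes, against 54.1% of tested genes, and Jun was the exception. With Rar mutant 3 left aside, Dmrt1 het Rar mutant 1 was the highest library for 5 of 10 genes, against 15.2% of tested genes.

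**Figure D3:**
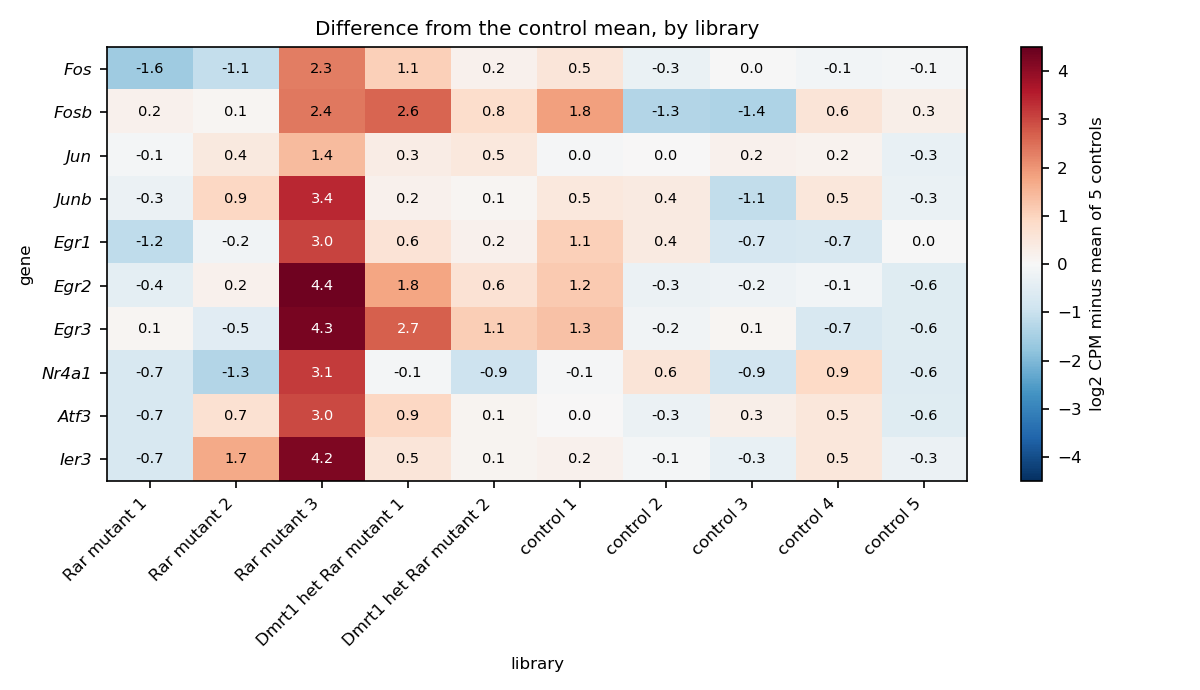
Log2 CPM of each gene (rows) in each library (columns) minus the mean of the 5 controls, with red for higher and blue for lower. The column of Rar mutant 3 is red for every gene, from 1.42 for Jun to 4.38 for Egr2, whereas Rar mutants 1 and 2 hold both colours.

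The comparison of Rar mutants with controls asked whether Cre on the floxed receptor alleles changed these genes. Of the 10, 0 passed edgeR's quasi-likelihood test at an adjusted p of 0.05. That test called 2 of 20570 genes (0.00972%), so the background share is itself near 0. All 10 fold changes were above 0, as were 46.9% of those of all tested genes, with a median log2 fold change of 1.64 against -0.02 over all tested genes. Ier3 averaged 58.3 ± 75.2 CPM in Rar mutants and 8.05 ± 2.07 CPM in controls (SD, n = 3 and 5), a log2 fold change of 2.85 (SE 0.73, edgeR adjusted p = 0.184). Egr2 averaged 18.7 ± 28.4 CPM in Rar mutants and 2.68 ± 1.63 CPM in controls, with 2.80 (SE 0.91, adjusted p = 0.322). Log2 fold changes of the other 8 were 2.74 for Egr3, 2.02 for Junb, 1.72 for Atf3, 1.56 for Nr4a1, 1.51 for Egr1, 0.92 for Fos, 0.82 for Fosb and 0.72 for Jun. Their SE ran from 0.27 for Jun to 0.98 for Egr3, and their edgeR adjusted p from 0.299 for Junb to 0.836 for Fosb. At an unadjusted p under 0.05 there were 6 of 10 (Jun, Junb, Egr2, Egr3, Atf3 and Ier3), against 9.45% of tested genes. DESeq2 called 1 of the 7 genes it gave a p for, Ier3 (log2 fold change 2.88, adjusted p = 0.0421), among 372 of 24151 genes (1.54%). The 3 without a p were Fos, Egr2 and Egr3.

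Without Rar mutant 3, 6 of the 10 log2 fold changes were below 0. Fos had -1.37 (SE 0.32, edgeR adjusted p = 0.322), Nr4a1 -1.14 (SE 0.49, adjusted p = 0.669), Egr1 -0.76, Egr3 -0.45, Fosb -0.39 and Egr2 -0.26. Ier3 stayed above 0 at 0.91 (SE 0.49, edgeR adjusted p = 0.775), with Junb at 0.33, Jun at 0.19 and Atf3 at 0.09. In this fit edgeR called 0 of the 10 and 0.00489% of all genes. At an unadjusted p under 0.05 there were 2 of 10 (Fos and Nr4a1), against 1476 of 20442 tested genes. DESeq2 was not run on that subset. Without Rar mutant 1, edgeR called Ier3 (3.40, SE 0.47, adjusted p = 0.00751) and Junb (2.51, SE 0.53, adjusted p = 0.0478), when 1.88% of genes were called.

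Among the 6 libraries with higher title numbers (Rar mutants 2 and 3 against 4 controls) all 10 log2 fold changes were above 0. They ran from 0.99 for Jun to 3.84 for Egr3. In these 6 libraries edgeR called 0 of 10 and 0.724% of all genes. At an unadjusted p under 0.05 there were 8 of 10, against 2886 of 19610 tested genes. Within the 4 libraries of lower number, Rar mutant 1 lay below control 1 for 10 of 10 genes, as it did for 50.4% of tested genes. There edgeR called Egr1 (-2.23, SE 0.22, adjusted p = 0.0294) among 1.07% of genes called. That value compares 1 library with 1 library and assumes that each varies like the Dmrt1 het Rar mutant pair. With a term for title number in the fit of all 10 libraries, log2 fold changes ran from 0.72 for Jun to 2.80 for Egr2. That edgeR fit called 0 of 10 and 0.413% of all genes. At an unadjusted p under 0.05 it had 6 of the 10, against 2879 of 20570 tested genes.

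**Figure D4:**
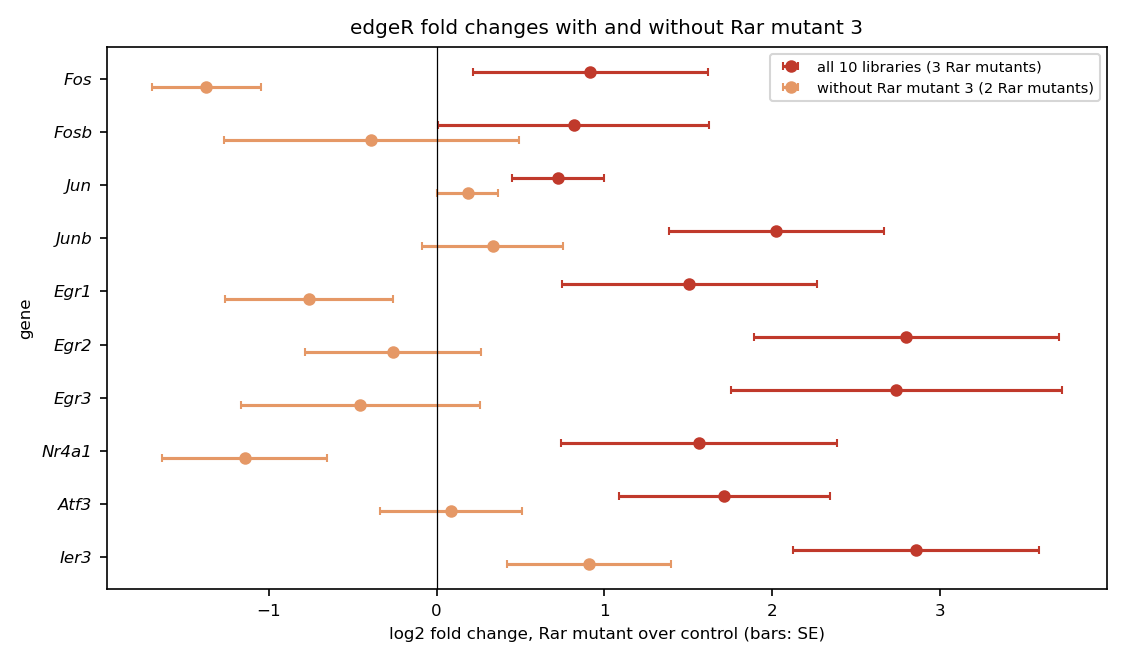
Log2 fold change of each gene, Rar mutant over control, from edgeR with its SE as a bar, in all 10 libraries and without Rar mutant 3. Every point of the full fit lies above 0, and without Rar mutant 3 the points of 6 genes lie below 0, lowest for Fos at -1.37.

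In Dmrt1 het Rar mutants against controls edgeR called 0 of the 10 genes and 4 of 20570 in all (0.0194%), with 0 of the 10 at an unadjusted p under 0.05 (17.3% of tested genes). DESeq2 gave a p for 7 of the 10 (none for Fos, Egr2 and Egr3) and called 0 of these 7 and 1.36% of all genes. At an unadjusted p under 0.05 it had 0 of the 7, against 4032 of 24151 genes. Rar mutant 3 is a library outside this comparison that enters its estimate of spread. Without it, the edgeR count at an unadjusted p under 0.05 was 4 of 10 (Fos, Jun, Egr2 and Egr3), against 3795 of 20442 tested genes. It was again 4 in a fit of these 2 groups alone, against 4230 of 20162 tested genes, with 0 of the 10 called in both fits. Fold changes were above 0 for 9 of 10, against 48% of tested genes. The largest log2 fold changes were 2.02 for Egr3 (SE 1.09, edgeR adjusted p = 0.342), 1.53 for Fosb (SE 0.88, adjusted p = 0.364) and 1.18 for Egr2 (SE 1.02, adjusted p = 0.540). Nr4a1 had -0.61 (SE 1.00, adjusted p = 0.761), and the remaining 6 ran from 0.04 for Junb to 0.66 for Fos. Egr3 averaged 3.02 ± 2.22 CPM in Dmrt1 het Rar mutants and 0.744 ± 0.561 CPM in controls (SD, n = 2 and 5), and Fosb 5.01 ± 4.04 CPM against 1.73 ± 1.67 CPM. Jun was the 1 gene of the 10 whose Dmrt1 het Rar mutant values all exceeded the controls, against 14.1% of tested genes. Both Dmrt1 het Rar mutants have low title numbers, and control 1, the control of that set, was the highest control for Fos, Fosb, Egr1, Egr2 and Egr3. Within that set edgeR called 0 of 10 (0.387% of all genes). Dmrt1 het Rar mutant 1 was 1.44 times control 1 for Fos, 2.67 times for Egr3 and 0.716 times for Egr1, and Dmrt1 het Rar mutant 2 was 0.782, 0.842 and 0.541 times control 1 for those genes.

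The direct test of Dmrt1 het Rar mutants against Rar mutants also called 0 of 10 (0% of all genes in edgeR), with 2 at an unadjusted p under 0.05 (16.9% of tested genes). DESeq2, again with no p for Fos, Egr2 and Egr3, called 0 of the other 7 and 2.59% of all genes. At an unadjusted p under 0.05 it had 2 of the 7, against 3880 of 24151 genes. The 2 genes in edgeR were Ier3, at 9.93 ± 2.07 CPM in Dmrt1 het Rar mutants and 58.3 ± 75.2 CPM in Rar mutants (log2 fold change -2.55, SE 1.02, edgeR adjusted p = 0.260), and Junb at -1.99 (SE 0.88, adjusted p = 0.290). Fold changes were below 0 for 9 of 10 and above 0 for Fosb at 0.71 (SE 0.99), against 49% of tested genes above 0. None of the 10 was higher in both Dmrt1 het Rar mutants than in all Rar mutants (0 of 10, against 19.8%). That outcome was fixed for every gene except Fosb, because Rar mutant 3 was the highest library for them, so nothing is read from it. Without Rar mutant 3, 7 of the 9 fold changes below 0 turned above 0. Fos was then at 2.04 (SE 0.37, edgeR adjusted p = 0.227) and Egr3 at 2.47 (SE 0.81, adjusted p = 0.340). Without Rar mutant 1, edgeR called Ier3 (-3.10, SE 0.65, adjusted p = 0.0489) and 1.64% of all genes. Within the lower title numbers, where Rar mutant 1 is the lone Rar mutant, it called Egr1 (1.56, SE 0.20, adjusted p = 0.0203) and 5.33% of all genes. That spread comes from the Dmrt1 het Rar mutant pair alone, so the value compares libraries and does not show a difference between the groups. The same Rar mutant libraries enter this comparison and that of Rar mutants with controls.

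Other immediate early genes were read from 2 lists, chosen with results of these data known. Among 17 other transcription factors of this class, edgeR called 0 in each comparison, and 16 of 17 fold changes in Rar mutants against controls were above 0, against 46.9% of tested genes (median log2 0.82, against -0.02). Nr4a3, a relative of Nr4a1, had 1.57, 2.08 and 25.8 CPM in Rar mutants and 0.517 to 2.05 CPM in controls (log2 fold change 2.71, SE 0.80, adjusted p = 0.251). Nfil3, a basic leucine zipper repressor, had 16.7, 39.8 and 100.6 CPM in Rar mutants and 10.99 to 15.1 CPM in controls (1.97, SE 0.42, adjusted p = 0.112). All 3 Rar mutants lay above every control for Nfil3. Fosl1, an AP-1 subunit, had 2.32, 4.53 and 7.77 CPM in Rar mutants and 1.25 to 2.21 CPM in controls (1.54, SE 0.35, adjusted p = 0.136), again without overlap. Such separation from controls in the higher direction was seen in 2.41% of tested genes, and in 0 of the 10 genes of the set.

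Among 24 immediate early genes that do not encode transcription factors, 0 were called by edgeR and 22 fold changes were above 0, against 46.9% of tested genes (median log2 0.51). Arc, best known from activated neurons, had 0.669, 1.33 and 50.4 CPM in Rar mutants and 0.366 to 1.14 CPM in controls (log2 4.55, SE 1.121, adjusted p = 0.164). Errfi1, an inhibitor of the EGF receptor, had 30.3, 79.8 and 468 CPM in Rar mutants and 23.4 to 63.9 CPM in controls (2.46, SE 0.68, adjusted p = 0.221). Rar mutant 3 was the highest library for 14 of the 17 and for 20 of the 24, against 15.1% of tested genes. Of 19 upstream kinases and factors it was highest for 5, and edgeR called 0 of them in each comparison. Their fold changes in Rar mutants against controls were above 0 for 12 of the 19, against 46.9% of tested genes (median log2 0.06). The exception in size was Crem, a cAMP-responsive factor of the CREB family, with 20.5, 22.8 and 175 CPM in Rar mutants and 13.2 to 20.9 CPM in controls (2.22, SE 0.58, adjusted p = 0.192).

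Genes of ovulation and cumulus expansion were also high in Rar mutant 3. Their summed level over 12 genes was 305, 919 and 1954 CPM in Rar mutants 1, 2 and 3, 149 and 139 CPM in Dmrt1 het Rar mutants, and 60.8 to 281 CPM in controls. Rar mutant 3 was the highest library for 9 of the 12, against 15.1% of tested genes, and Snap25 was at 0 in a library. In Rar mutant 2, 9 of the 12 exceeded every control, against 18% of tested genes, whereas the summed level of the 10 immediate early genes there, 199.7 CPM, lay within the 134 to 267 CPM of controls. In Rar mutant 3 that sum was 1473 CPM. Of the most abundant members, Adamts1, a matrix protease, had 37.8, 620 and 169 CPM in Rar mutants and 20.8 to 53.1 CPM in controls, and Runx1 had 33.9, 135 and 249.3 CPM in Rar mutants and 21.6 to 59.1 CPM in controls. Runx2 had 222, 95.4 and 96.8 CPM in Rar mutants and 3.89 to 182 CPM in controls. In these bulk samples a different share of cells and a different RNA content per cell cannot be told apart.

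Heat shock genes, which can rise with tissue handling, were highest in Rar mutant 3 for 8 of 11, against 15.1% of tested genes. Their summed level was 5648, 5886 and 7906 CPM in Rar mutants, 4295 and 4385 CPM in Dmrt1 het Rar mutants, and 4817 to 5971 CPM in controls. Of the most abundant, Hspa8 had 3100 CPM in Rar mutant 3 and 2256 to 2630 CPM in controls. Hsp90aa1 had 1930 CPM there and 869 to 1931 CPM in controls, and Hspd1 1210 CPM and 611 to 776 CPM. Rar mutant 3 was over 2 times the next library for 0 of the 11 heat shock genes, against 1.38% of tested genes. The same count was 8 of the 10 genes of the set, 8 of the 12 ovulation genes, 9 of the 17 other transcription factors and 10 of the 24 other immediate early genes. The median ratio to the next library was 11.1 for the ovulation genes and 4.04 for the set. Erythroid genes (5 of 5 highest in Rar mutant 3) summed to 470, 2003 and 2706 CPM in Rar mutants, 371 and 593 CPM in Dmrt1 het Rar mutants, and 297 to 1635 CPM in controls. The part of these genes in the differences of Rar mutant 3 was not tested. Macrophage, endothelial and lymphocyte markers in Rar mutant 3 summed to 111, 214 and 2.62 CPM, against ranges of 91.7 to 191, 201 to 335 and 2.81 to 4.75 CPM in controls. The lymphocyte sum covers 6 genes, of which 3 were tested. Adipocyte markers summed to 7.43 CPM there, against 10.5 to 65.5 CPM in controls. Sums of granulosa, theca and luteal, oocyte, smooth muscle and neutrophil markers in Rar mutant 3 lay within their control ranges.

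**Figure D5:**
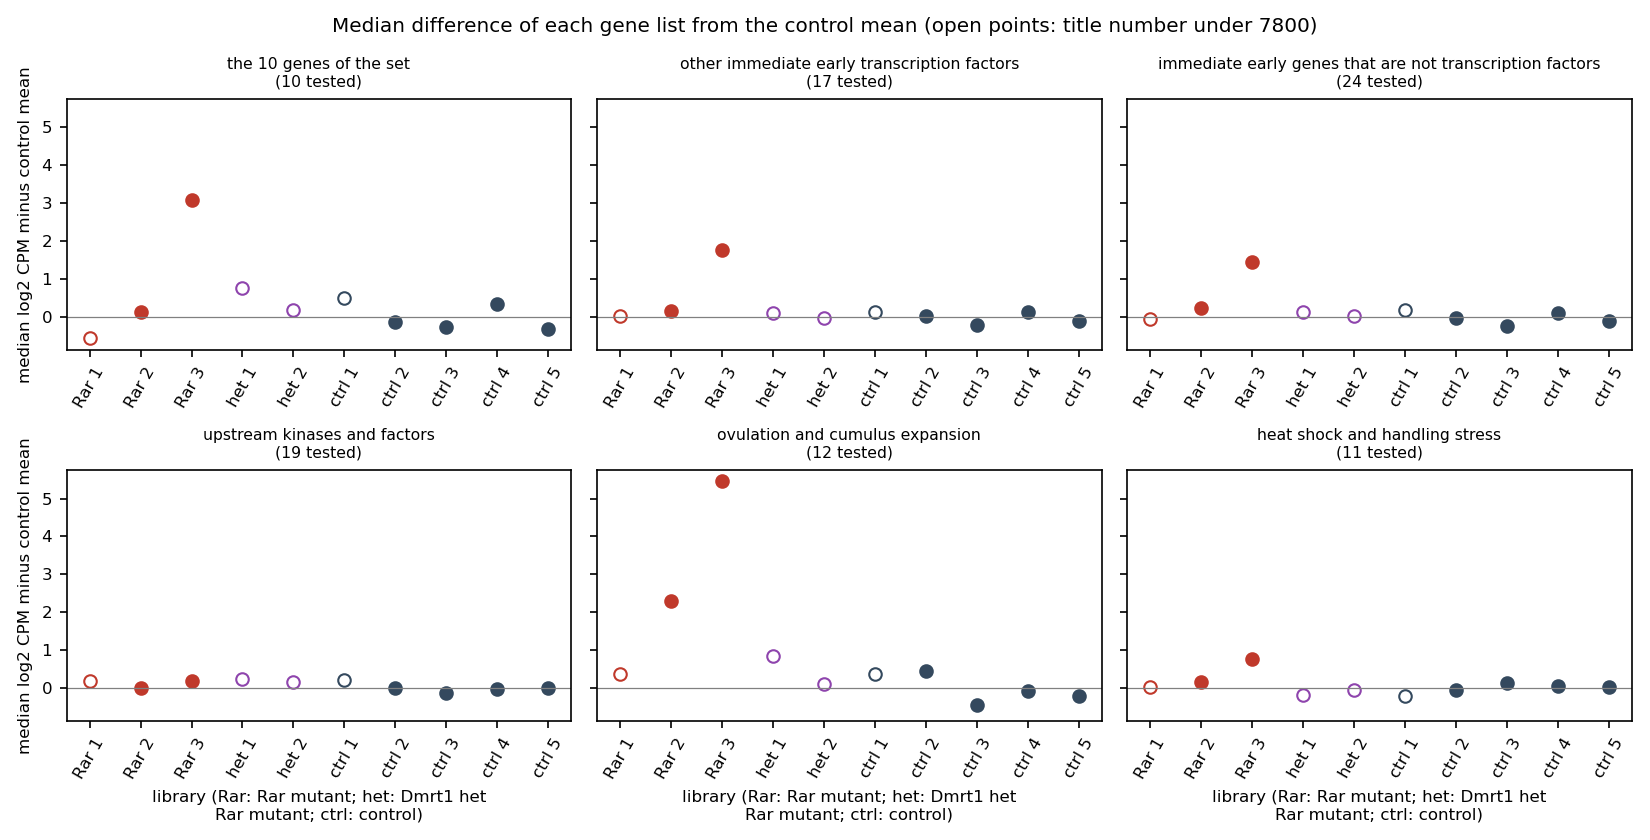
Median log2 CPM minus the control mean, over the tested genes of each list, in each library, with open points for title numbers under 7800. In Rar mutant 3 the medians are 3.09 for the 10 genes of the set, 1.77 and 1.44 for the other immediate early lists, 5.45 for ovulation and cumulus genes, 0.76 for heat shock genes and 0.18 for upstream kinases and factors.

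The 10 genes did not share one profile. Likeness was measured as the root mean square difference of log2 CPM over the 10 libraries after centring each gene on its own mean, so a smaller value is a closer profile. Egr2 and Egr3 were nearest to each other (0.47), as were Junb and Ier3 (0.48), and Fos and Egr1 (0.56). Jun was nearest to Atf3 (0.58), Atf3 to Ier3 (0.53), Nr4a1 to Junb (0.73) and Fosb to Egr2 (0.96), so Fosb stood farthest from any other. Of 16646 genes outside the set with a mean of at least 1 CPM, the closest to the median profile of the 10 were Osgin2 (0.33), Slc10a6 (0.37), Pcdh10 (0.40), Morc4 (0.42), Gtdc1 (0.42), Scin (0.43), Cyr61 (0.43) and Tnfaip3 (0.43). A flat profile would be 1.05 away. Osgin2 had 20.9, 18.2 and 217 CPM in Rar mutants, 30.6 and 25.3 CPM in Dmrt1 het Rar mutants, and 14.4 to 20.02 CPM in controls.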

How the data were processed

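PolyA RNA was sequenced from 10 mouse ovary samples, grouped by their titles. Per the submitters' processing notes, Trimmomatic 0.32, STAR 2.4.2a, SAMtools 1.0 and DESeq2 1.12.3 were used on GRCm38. The counting tool and its use of strand are not given in the sources used here, while the library kit was stranded, per the labels' protocols. The deposited count table holds raw counts per gene, and the deposited FPKM table holds FPKM values that the authors scaled by size factors (within 0.0712%). The authors' deposited comparison table gives a mean count (signal), log2 fold change with its error, Wald score and p-value for 185 genes, and 0 of the 10 genes are among them.

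From these counts, edgeR 4.0.16 in R 4.3.3 (TMM factors, filterByExpr, robust quasi-likelihood F test) gave two-sided tests in 1 fit of 3 groups, with Benjamini-Hochberg adjustment over 20570 genes. All 10 genes passed the filter. The SE is the size of the log2 fold change over the root of its F statistic. Log2 CPM used a prior count of 2. DESeq2 1.42.0, limma 3.58.1 on log2(FPKM + 1) and log2(FPKM + 0.1) with genes of at least 0.1 FPKM in 2 libraries, other scaling and filters, title number, replicate block and single libraries left out were alternatives. The edgeR step was tested on simulated data, with changes planted in a small random subset of the genes. The simulation held no title-number split and no outlying library, so its shares do not give the recovery for the 10 genes here. For Rar mutants against controls, 36% of the planted 2-fold and 88% of the planted 4-fold changes were recovered in a fit of 20119 genes, with 8.15% of calls false. For Dmrt1 het Rar mutants against controls these were 31% and 79% among 20125 genes (4.35% false), and against Rar mutants 13% and 75% among 20124 genes (2.22% false). For counting error only, a count of 0 allows 3 counts, or 0.118 to 0.137 CPM.

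The genes and lists were chosen with earlier results of these data known. Named genes were all 10, the called genes or otherwise the 3 of smallest p in each related list, of which a part is printed, the 3 most abundant ovulation and heat shock genes, and the 8 closest profiles. Gene positions are from GENCODE M21. No pair of libraries of a group was a duplicate.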

Additional observations from a re-analysis of the deposited data

Results flagged for a closer look

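In control 1, 3 of the 10 genes lay apart from the other 4 controls by Dixon's criterion, which is met by chance in about 1 in 20 groups. Fos was at 16.7 CPM there, with a gap to the next control of 0.719 of the whole control range. Egr2 was at 5.57 CPM with a gap of 0.850 of the range, and Egr3 at 1.72 CPM with a gap of 0.756. Control 1 is the 1 control with a title number under 7800.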

How the results depend on the processing

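Of 620 fold changes of the 10 genes under other settings, 548 kept direction and side of the threshold and 4 passed it with the same sign. The other 68 changed sign, whichever side of the threshold they then lay on. None of the 10 genes was called in the full fit. Where no cause is given below, the cause was not tested. The number of the 10 genes called was 0 in every comparison, but 1 for Rar mutants against controls with DESeq2 and in the lower title numbers, 1 for Dmrt1 het Rar mutants against Rar mutants in the lower title numbers (Egr1), and 0 to 2, 0 and 0 to 1 with single libraries left out.

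Over all genes, calls for Rar mutants against controls were 2, but 372 with DESeq2, 85 with a title-number term, 142 and 218 in the higher and lower title numbers, 21 with all Cre-positive ovaries together, and 1 in the 2 groups alone or with limma on FPKM (pseudocount 1 or 0.1). With single libraries left out they were 1 to 384 (384 if Rar mutant 1 is dropped, 7 if control 2, and 1 if any of Rar mutant 3, control 3 and control 5). For Dmrt1 het Rar mutants against controls they were 4, but 329 with DESeq2, 1 with a title-number term, 79 in the lower numbers and 0 to 364 with libraries left out (364 without control 1, 2 without Rar mutant 3 or control 2, 3 or 5, 1 without Dmrt1 het Rar mutant 1 and 0 without the other). In the direct comparison of Dmrt1 het Rar mutants with Rar mutants they were 0, but 626 with DESeq2, 1088 in the lower numbers and 0 to 335 with libraries left out (335 without Rar mutant 1, 1 without control 1).

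Log2 fold changes that changed sign were, for Rar mutants against controls in the lower numbers, Fos -2.14, Fosb -1.70, Jun -0.036, Junb -0.71, Egr1 -2.23, Egr2 -1.65, Egr3 -1.35, Nr4a1 -0.66, Atf3 -0.78 and Ier3 -0.93, and Fos -0.10 with limma on log2(FPKM + 0.1). With libraries left out the ranges were -1.42 to 1.42 for Fos, -0.50 to 1.55 for Fosb, -0.76 to 2.02 for Egr1, -0.29 to 3.34 for Egr2, -0.78 to 3.31 for Egr3 and -1.18 to 2.09 for Nr4a1. Without Rar mutant 3 alone, Fos was -1.37, Fosb -0.39, Egr2 -0.26, Egr3 -0.45 and Nr4a1 -1.14. The ranges include a fit without Rar mutant 3 and with a title-number term, added after seeing the data, in which Egr1 was -0.75. For Dmrt1 het Rar mutants against controls, Nr4a1 was 0.31 with a title-number term, Junb -0.30 and Egr1 -0.67 in the lower numbers, and -0.15 to 0.15 (Junb) and -0.12 to 0.60 (Egr1) with libraries left out. For Dmrt1 het Rar mutants against Rar mutants, a title-number term gave Fos 0.19, Fosb -0.060 and Jun 0.068. The lower numbers gave Fos 2.29, Jun 0.49, Junb 0.40, Egr1 1.56, Egr2 1.77, Egr3 2.16, Nr4a1 0.27, Atf3 1.33 and Ier3 1.08. Limma gave Fos 0.50 and Egr3 0.084 (pseudocount 1) or 0.71 and 0.55 (0.1). With libraries left out the ranges were -0.76 to 2.04 for Fos, -0.50 to 1.92 for Fosb, -0.60 to 0.35 for Jun, -1.78 to 1.00 for Egr1, -2.28 to 1.44 for Egr2, -1.77 to 2.47 for Egr3, -2.70 to 0.54 for Nr4a1 and -1.67 to 0.80 for Atf3. Without Rar mutant 3 alone, Jun was 0.23 and Atf3 0.46, and with a title-number term as well, Fos was 1.87, Egr1 0.63, Egr2 0.93, Egr3 1.82 and Nr4a1 0.51.

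Same-numbered libraries of Rar mutants and controls had correlations of their deviations of 0.4352, 0.0161 and 0.2435. Pairs of unlike number ran from -0.3973 to 0.2419. These values do not settle whether the numbers pair samples, and the main fit used no pairing. A replicate block left 2, 0 and 0 genes called in the 3 comparisons in order (2, 4 and 0 without it) and 0 of the 10, with Fos at -0.23 for Rar mutants against controls. For Dmrt1 het Rar mutants against Rar mutants the block gave Fos 1.20, Jun 0.045, Egr1 0.10, Egr2 0.29 and Egr3 1.23. Egr3 and Fosb rest on counts as low as 9, which limits their precision.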

Other observations

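Of the other immediate early genes, Ctgf and Myc had the smallest p of their lists in Dmrt1 het Rar mutants against controls. Ctgf, a secreted matrix-associated protein, had 139 and 109 CPM in Dmrt1 het Rar mutants and 29.5 to 68.4 CPM in controls (log2 fold change 1.20, SE 0.53, edgeR adjusted p = 0.281). Myc, a growth-promoting transcription factor, had 90.3 and 80.7 CPM in Dmrt1 het Rar mutants and 45.9 to 65.4 CPM in controls (0.56, SE 0.19, adjusted p = 0.244). Neither was called, and their values in both libraries lay above every control, a separation seen in 14.1% of tested genes. Rar mutants 1, 2 and 3 had 21.9, 40.9 and 139.8 CPM of Ctgf and 58.1, 85.4 and 55.2 CPM of Myc. The Dmrt1 het Rar mutant values thus lay close to those of 1 Rar mutant library for each gene. Mkl2, a coactivator of the serum response factor, had 65.7 and 57.2 CPM in Dmrt1 het Rar mutants and 25.4 to 56.8 CPM in controls (0.78, SE 0.29, adjusted p = 0.252), with control 1 the highest control.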
